A study of Mus musculus with 31 samples.

Results

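The inhibitory synapse genes described here were 28 genes of GABA and glycine signalling, chosen by name, with earlier results of these data known. They were found among 25497 genes measured by RNA-seq in the thalamus of 31 adult mice, and all 28 passed the filter on low counts. They comprised 11 subunits of GABA-A receptors, 2 of GABA-B receptors, 4 of glycine receptors, 7 genes of transmitter synthesis and transport, 2 scaffold genes and 2 chloride transporters. The mice were offspring, at postnatal day 90, of mothers that had been reared in social isolation (SIR) or of control mothers. By their labels they fell into 7 SIR males, 8 SIR females, 8 control males and 8 control females, and SIR names the housing labelled for the mother, with no age or length of isolation stated. The sources used here give no strain, litter or batch, so the p-values rest on variation among single animals, and any littermates were counted separately.

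GABA is the main fast inhibitory transmitter of the forebrain. It is made from glutamate by the decarboxylases GAD67 (Gad1) and GAD65 (Gad2), loaded into vesicles by the transporter VGAT (Slc32a1) and sensed by chloride channels of the GABA-A type and by G-protein-coupled receptors of the GABA-B type. In the rodent thalamus the GABA neurons of the reticular nucleus surround and inhibit the relay neurons, which project to cortex and themselves make glutamate. Glycine receptors are related chloride channels known mainly from the spinal cord and brain stem, and chloride transporters set the gradient on which both kinds of channel act.

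Library totals ran from 13 to 25.74 M estimated counts. The 10 relay neuron markers examined, among them Tcf7l2, Prkcd and Gbx2, were above 0 in every library, so markers of the labelled tissue were present. Summed markers of other regions varied, and 1 library, control female 20, held 1770 CPM (counts per M reads, on TMM-scaled totals) of choroid plexus markers. In the library labelled SIR female 5, the summed Y-linked genes stood at 75.2 CPM, inside the range of libraries labelled male (60.5 to 85.8 CPM) and above the other libraries labelled female (0.4 to 1.02 CPM). It was kept where its label puts it. Library numbers ran from 320 to 432 in SIR offspring and from 554 to 746 in controls, so housing and number range cannot be told apart. In bulk tissue, fewer cells of a type and less RNA per cell cannot be told apart either.

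Levels were compared between genes in TPM (transcripts per M, which corrects for length). The GABA-B subunit gene Gabbr1 was highest, at a mean of 660 TPM ± 46.0 (SD, n = 31), and its partner subunit gene Gabbr2 stood at 269 TPM ± 32.6. Next to Gabbr1 came Slc6a11, the GABA transporter GAT-3 of astrocytes, at 457 TPM ± 38.1, and Abat, the GABA-degrading transaminase, at 306 TPM ± 16.4. Gad1 stood at 262 TPM ± 83.6, Gad2 at 117 TPM ± 30.9 and Slc32a1 at 73.5 TPM ± 18.3. The ranges of Gabbr2, Gad1, Glrb and Slc12a5 overlapped, so their order within that stretch did not exceed the spread between libraries.

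Among the 11 GABA-A genes listed, Gabra4, Gabrb2 and Gabrd were highest, at 196 TPM ± 43.6, 132 TPM ± 24 and 130 TPM ± 23.7 (SD, n = 31). The alpha-4 and delta subunits are known from extrasynaptic receptors of relay neurons. These 3 genes held means of 28.4%, 19.2% and 19.1% of the summed TPM of the 11. Gabra3, known from the reticular nucleus, followed at 74.4 TPM ± 14.3, ahead of Gabrb1 (43.9), Gabra2 (39.3), Gabrg1 (26.2), Gabra5 (18.6), Gabrq (10.3), Gabrg3 (7.9) and Gabre (3.85). Glrb, the beta subunit that anchors glycine receptors, made up 88.5% of the glycine receptor TPM, while the alpha subunit genes Glra2 (12.8 TPM), Glra1 (12.4 TPM) and Glra3 (4.58 TPM) were far lower. Of the chloride transporters, Slc12a5 (KCC2, the neuronal exporter) stood at 213 TPM and Slc12a2 (NKCC1, an importer) at 41.2 TPM. The scaffold genes Nlgn2, for the adhesion protein neuroligin 2, and Gphn, for gephyrin, stood at 92.9 and 52.8 TPM. Slc6a9, the glycine transporter GlyT1, had 104 TPM. Slc6a5, the neuronal glycine transporter GlyT2, had 0.185 TPM, resting on 6 to 27 counts in a library.

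**Figure D1:**
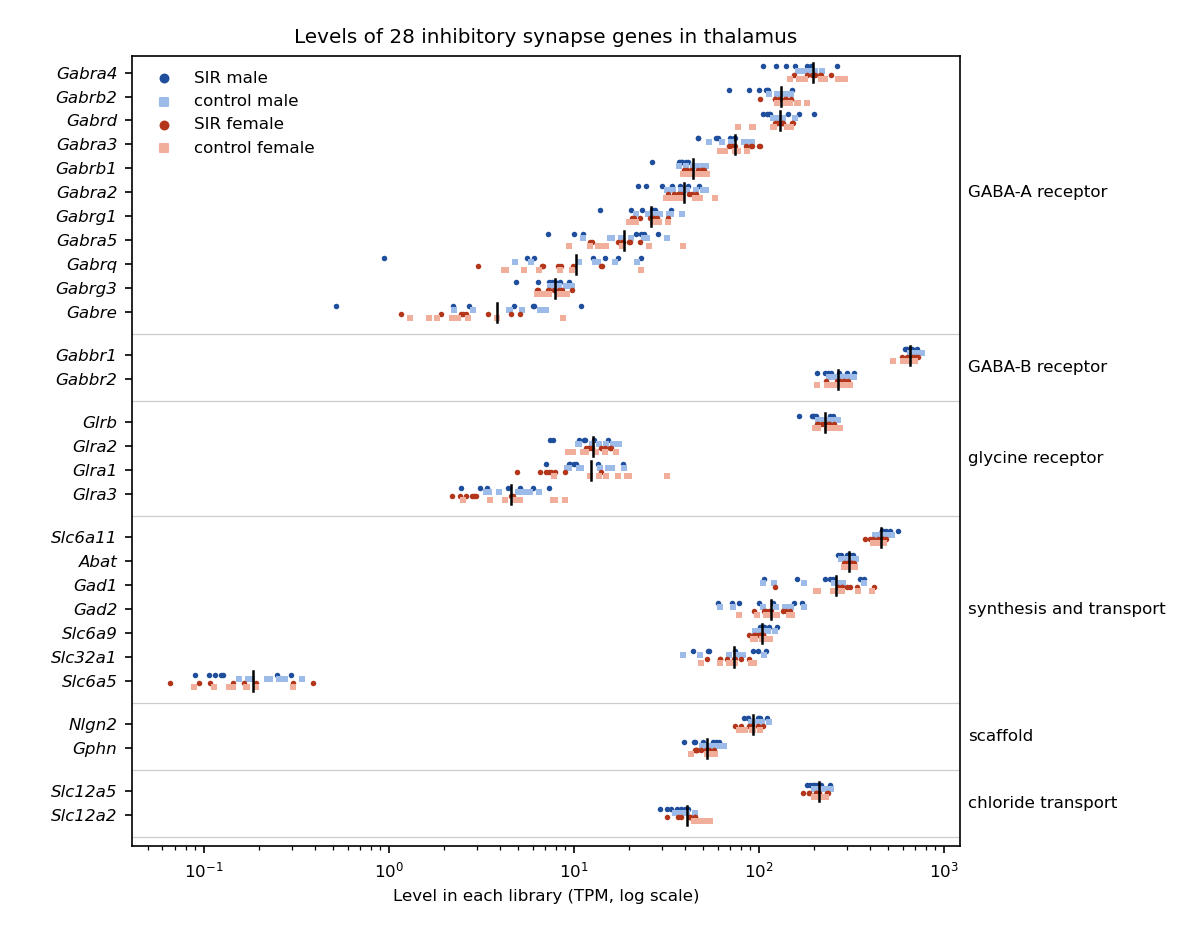
Level of each of the 28 genes in each library (TPM, log axis), grouped by class, with 1 point per library, colours and shapes for the 4 groups and a black line at the mean of all 31 libraries. Gabbr1 lies highest at 660 TPM and Slc6a5 lowest at 0.185 TPM, and Gabre and Gabrq spread widest.

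The genes differed in how steady they were. Abat varied least, with a coefficient of variation of 4.26% over the 31 libraries, followed by Slc12a5 (6.50%), Gabbr1 (7.26%), Gphn (7.30%) and Nlgn2 (7.86%). Gabre and Gabrq, which encode the epsilon and theta GABA-A subunits, varied most, at 58.4% and 53.9%. Their highest library stood 19.4-fold and 22-fold above their lowest. Glra1 (46.8%), Slc6a5 (40.5%) and Glra3 (40.3%) came next.

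The main comparison asked which of these genes differed between SIR and control offspring over both sexes, weighting the sexes equally. A gene was called when edgeR's quasi-likelihood test gave it a Benjamini-Hochberg adjusted p under 0.05, with adjustment across the 14886 genes tested. Gabrb2, Glra1 and Gphn were called lower in SIR offspring and none was called higher, so 3 of 28 (10.7%) were called, beside 4.55% of all genes (2.79% lower and 1.76% higher). In males Gabrb1 was called lower (1 of 28, beside 1.33% of all genes, 1.05% lower and 0.282% higher). In females Glra1, Glra3 and Slc12a2 were called lower (3 of 28, beside 4.62% of all genes, 2.24% lower and 2.38% higher). At an unadjusted p under 0.05, 6 of 28 were lower over both sexes, 5 in males and 5 in females, and 0, 0 and 1 were higher, beside 22.1%, 17.6% and 20% of all genes in either direction. By DESeq2 and by limma-voom likewise none was called higher over both sexes or in males, and in females both called Gabra3 higher. The median log2 fold change of the 28 was -0.05 over both sexes, -0.10 in males and 0.00 in females, against -0.01, 0.00 and -0.01 over all genes tested. The male and female comparisons have no samples in common.

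**Figure D2:**
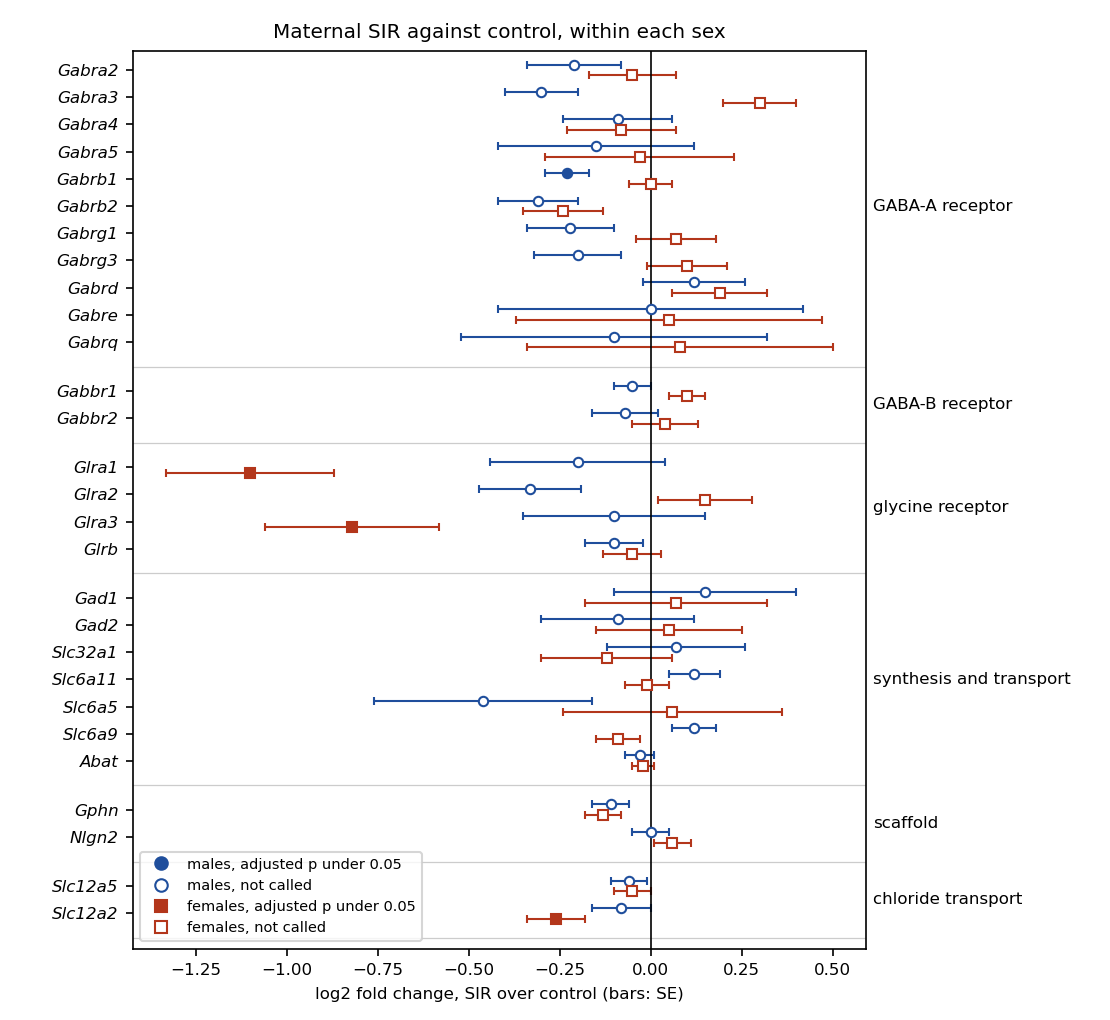
Log2 fold change, SIR over control, of each gene in males (circles) and females (squares) with its SE, where filled symbols mark an adjusted p under 0.05. Most GABA-A genes lie left of 0 in males, and Glra1 and Glra3 lie far left in females.

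Among GABA-A receptor genes, Gabrb2 fell in SIR offspring. It encodes the beta-2 subunit, a common partner of alpha subunits in the adult thalamus. Its lowest, median and highest values were 133, 193 and 289 CPM in SIR males, against 209, 246 and 279 CPM in control males. They were 204, 228 and 275 CPM in SIR females, against 204, 278 and 346 CPM in control females. In all, 13 of 15 SIR libraries lay below the control median, and the groups overlapped. Gabrb2 fell by 0.27 ± 0.08 on the log2 scale over both sexes (SE, adjusted p = 0.040), with differences of -0.31 in males and -0.24 in females that were not called alone. The call was lost when any of 17 single libraries was left out, with an adjusted p of up to 0.072. Those were SIR males 1, 4, 6 and 15, SIR females 2, 3, 5, 10 and 12, control males 16, 19, 21, 22 and 25 and control females 29, 30 and 31. Its level ran against the summed hypothalamus markers over the libraries (Pearson r = -0.67, Spearman rho = -0.69, n = 31). That sum had a median of 298 CPM in SIR (46.8 to 510) and 185 CPM in control offspring (54.2 to 458). In males the medians were 378 CPM in SIR and 337 CPM in control offspring. In females they were 288 CPM in SIR and 83.0 CPM in control offspring. With 3 components of neighbouring-region markers in the fit, Gabrb2 was still called lower. The part of this region in the Gabrb2 difference was not tested beyond that fit. Without 8 libraries whose numbers lay apart from the rest of their group, its log2 fold change was -0.20 (adjusted p = 0.277).

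Gabrb1, for the beta-1 subunit, fell in SIR males. Its lowest, median and highest values were 169, 177 and 194 CPM in SIR males, against 187, 208 and 251 CPM in control males. All 7 SIR males lay below the control median and 5 lay below every control male, though the ranges overlapped. The log2 fold change was -0.23 ± 0.06 (SE, adjusted p = 0.036) in males and 0.00 ± 0.06 in females, and the difference between the sexes was not called (-0.23 ± 0.08, adjusted p = 0.113). The male call was lost without any of SIR males 1, 4, 6 and 15, SIR female 12 or control males 16, 19, 21, 22 and 25, with an adjusted p of up to 0.101. With the trend of expression on transcript length removed, the log2 fold change was -0.11 (adjusted p = 0.286). Gabrb1 lies in a cluster of 4 GABA-A genes on chromosome 5, and the other 3 had male values of -0.22 (Gabrg1), -0.21 (Gabra2) and -0.09 (Gabra4), none of them called.

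The 250 bases upstream of a RefSeq start are shown for Gabrb2, Gabrb1 and Gphn, 3 of the 6 genes called lower with housing, the GABA-A subunits and the scaffold (RefSeq, build GRCm38.p6, plus strand, 5′ to 3′). They are chr11:42420190-42420439 for the most upstream of 3 Gabrb2 starts, chr5:71699682-71699931 for the downstream of 2 Gabrb1 starts and chr12:78226405-78226654 for Gphn. Capitals mark an exact match, on either strand, to TATAAA (the TATA box) in Gabrb2 and to the palindromic NRF1 motif in Gabrb1, whose letters they spell.
Gabrb2: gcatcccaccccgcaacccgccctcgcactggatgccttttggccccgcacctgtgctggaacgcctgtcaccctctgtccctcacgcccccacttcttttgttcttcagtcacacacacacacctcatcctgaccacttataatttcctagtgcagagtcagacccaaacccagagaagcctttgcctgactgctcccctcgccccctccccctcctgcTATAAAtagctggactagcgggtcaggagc
Gabrb1: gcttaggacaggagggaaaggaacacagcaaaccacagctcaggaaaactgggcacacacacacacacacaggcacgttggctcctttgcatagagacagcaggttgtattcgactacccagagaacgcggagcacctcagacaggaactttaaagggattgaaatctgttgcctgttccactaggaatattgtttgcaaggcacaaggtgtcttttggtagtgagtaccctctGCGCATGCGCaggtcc
Gphn: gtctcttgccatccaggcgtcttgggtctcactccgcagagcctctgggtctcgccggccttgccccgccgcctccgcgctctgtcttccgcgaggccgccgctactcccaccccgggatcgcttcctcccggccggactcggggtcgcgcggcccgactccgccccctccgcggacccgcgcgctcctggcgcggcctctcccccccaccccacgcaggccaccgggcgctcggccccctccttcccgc
TATAAA was found in 12.4% of 32851 such windows of all genes and the NRF1 motif in 0.782%. Of 28 genes, 24 were in the table, with 32 windows. TATAAA lay in 5 of these, of Gabra3, Gabrb2, Gad1 and Glra2, and the NRF1 motif in 1, of Gabrb1. The windows at the other Gabrb2 and Gabrb1 starts, not shown, held neither motif. The cAMP response element TGACGTCA lay in 1.55% of all windows and in 0 of the 32. The Gphn window held 77.2% G and C, against a median of 52.4% over all windows.

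Gabra3, for the alpha-3 subunit, differed in opposite directions in the sexes. It had lowest, median and highest values of 75.7, 103 and 118 CPM in SIR males, against 87.9, 129 and 141 CPM in control males. In females it had 109, 139 and 156 CPM in SIR offspring, against 101, 106 and 137 CPM in controls. All 7 SIR males lay below the control male median and all 8 SIR females above the control female median, with overlap in both sexes. The differences of -0.30 ± 0.10 in males (adjusted p = 0.103) and 0.30 ± 0.10 in females (adjusted p = 0.0685) were not called alone. The male minus the female difference was -0.60 ± 0.14 (SE, adjusted p = 0.0136), the only one called among 28 (3.57%, beside 2.83% of all genes, 1.75% lower and 1.08% higher). It was called without each library in turn. It was not called on log2(TPM + 1) (adjusted p = 0.0505) or with 3 components of neighbouring-region markers in the fit (-0.43, adjusted p = 0.241).

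Summed markers of the reticular nucleus and prethalamic GABA neurons had a mean of 343 CPM ± 102 and a median of 286 CPM in SIR males (SD, n = 7), against a mean of 334 CPM ± 117 and a median of 387 CPM in control males (n = 8). The male means and medians thus differed in direction, and 8 of the 13 markers had positive log2 fold changes in males (median 0.03), with Npy called higher. In females the sum had a mean of 423 CPM ± 92 and a median of 440 CPM in SIR offspring, against a mean of 327 CPM ± 101 and a median of 298 CPM in controls (SD, n = 8 each), with 9 of 13 markers positive and none called. The correlation of Gabra3 with that sum was 0.61 over 31 libraries (rho = 0.61). Within groups it was 0.79 in SIR males, 0.71 in SIR females, 0.85 in control males and -0.01 in control females. None of the 13 reticular and prethalamic markers was called for the male minus female difference. The components of neighbouring-region markers were built without the reticular and prethalamic markers. The part of these cells in the Gabra3 result was therefore not tested.

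Of the other GABA-A genes none was called in a housing comparison. In males 9 of 11 had a negative log2 fold change, with a median of -0.20, beside 50.4% of all genes. In females 4 of 11 were negative and the median was 0.05. The male minus female difference was negative for 11 of 11, beside 48.9% of all genes, with a median of -0.16. Only that of Gabra3 was called, and several were smaller than their SE, among them Gabra4 (-0.01 ± 0.21), Gabre (-0.05 ± 0.59), Gabrb2 (-0.07 ± 0.15) and Gabrd (-0.07 ± 0.19). In 44 alternative settings the sign turned in 15 for Gabra4 and 13 for Gabre. Some of these genes varied together over libraries, so the 11 are not separate results. Gabrd, with 0.12 in males and 0.19 in females, had positive values in both. Gabre and Gabrq had SEs of 0.42 within a sex, the widest of the class, with values between -0.10 and 0.08. Summed over the 11 genes, the class stood at 608 TPM ± 81.6 in SIR males (SD, n = 7) and 697 TPM ± 49.8 in control males (n = 8), and at 698 TPM ± 56.0 in SIR females and 714 TPM ± 65.5 in control females (n = 8 each).

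The GABA-B genes, whose products act as an obligate pair, were not called. Gabbr1 had log2 fold changes of -0.05 ± 0.05 in males and 0.10 ± 0.05 in females, and Gabbr2 had -0.07 ± 0.09 and 0.04 ± 0.09. At an unadjusted p under 0.05, neither was in a housing comparison, and Gabbr1 was for the male minus female difference (-0.15 ± 0.07).

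Glycine receptor genes held the greatest fold changes among the called members. Glra1 encodes the alpha-1 subunit of the adult brain stem and spinal cord receptor. In females it had lowest, median and highest values of 6.60, 8.91 and 16.5 CPM in SIR offspring, against 9.51, 19.7 and 42.7 CPM in controls. In males it had 8.99, 12.5 and 21.5 CPM in SIR offspring, against 10.7, 15.1 and 23 CPM in controls. All 8 SIR females lay below the control female median, and 5 lay below every control female. The log2 fold change was -1.10 ± 0.23 in females (2.15-fold lower, adjusted p = 0.00716), -0.20 ± 0.24 in males and -0.65 ± 0.17 over both sexes (adjusted p = 0.0287). The difference between the sexes was not called (0.91 ± 0.33, adjusted p = 0.149). Leaving out single libraries kept the female call, with adjusted p from 0.00255 to 0.0186. The call over both sexes was lost without SIR male 1, SIR male 15 or control male 25, with an adjusted p of up to 0.053, and with 3 components of neighbouring-region markers in the fit (-0.30, adjusted p = 0.193). It was also lost without the 8 libraries numbered apart (-0.50, adjusted p = 0.134) and without SIR female 5 and control females 20 and 31 (-0.49, adjusted p = 0.0726). The same held with the length trend removed (adjusted p = 0.0656) and without the 2 shallowest libraries (adjusted p = 0.0569).

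Glra3, for the alpha-3 glycine subunit, also fell in SIR females. It had 5.46, 6.93 and 11.2 CPM in SIR females, against 6.30, 11.9 and 23.7 CPM in control females. All 8 SIR females lay below the control median, with overlap. The log2 fold change in females was -0.82 ± 0.24 (adjusted p = 0.0495), and that in males was -0.10 ± 0.25. That call sat at the threshold and was lost without any of 25 libraries, with an adjusted p of up to 0.122. Those were SIR males 1, 6, 8, 13 and 15, SIR females 3, 5, 7, 10, 11 and 12, control males 16, 19, 21, 22, 23, 25, 27 and 28 and control females 17, 20, 26, 29, 30 and 31. Glra2, the alpha-2 subunit gene, had -0.33 in males and 0.15 in females, and Glrb had -0.10 and -0.05, with none called.

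Glra1 and Glra3 varied together over libraries (r = 0.82, rho = 0.79, n = 31). Glra3 followed the summed midbrain and monoamine markers (r = 0.84) and Glra1 did so less closely (r = 0.59). That marker sum ranged from 19.7 to 45.5 CPM in SIR females and from 26.7 to 111 CPM in control females. Its medians were close, at 32.2 CPM in SIR females and 34.6 CPM in control females. It stood at 111, 74.6 and 74.1 CPM in control females 29, 31 and 20, and at 26.7 to 35.3 CPM in the other control females. Its 8 tested markers all had negative log2 fold changes in females (median -1.60), and Slc6a3, Pax7 and Tal1 were called lower. Of 6 brain stem markers, Hoxb3 and Hoxb5 were at 0 in 28 of 31 libraries, and the sum was 1.45 to 4.08 CPM in SIR females and 2.39 to 10.7 CPM in control females. With 3 components of neighbouring-region markers in the fit, the female values were -0.24 for Glra1 (adjusted p = 0.721) and -0.18 for Glra3 (adjusted p = 0.854). The part of these regions in the Glra1 and Glra3 differences was not tested beyond that fit.

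**Figure D3:**
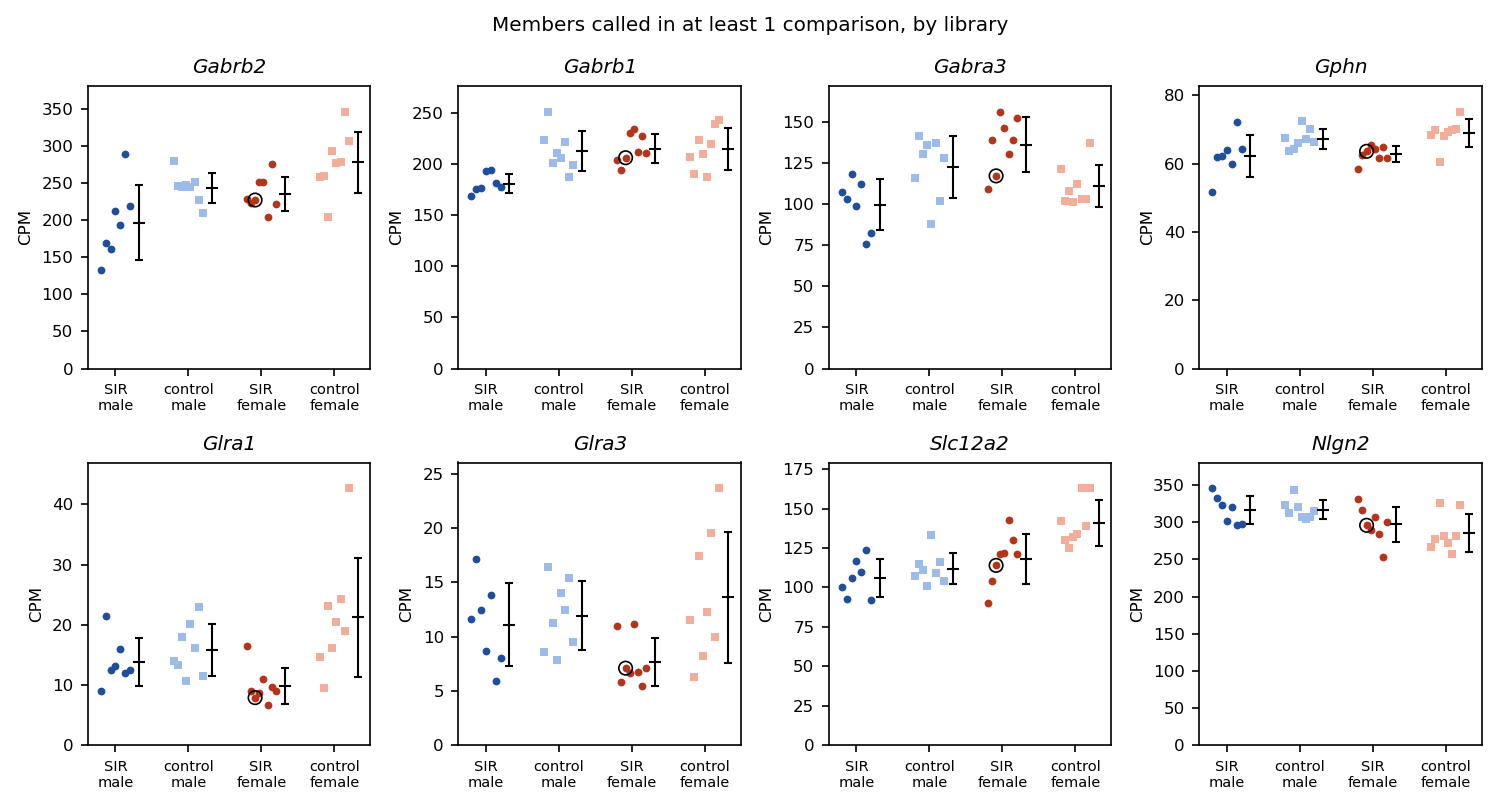
CPM of the 8 genes called in at least 1 comparison, with 1 point per library in SIR males, control males, SIR females and control females, and the mean ± SD beside each group. The circled point is the library labelled SIR female 5. The Glra1 panel shows 5 SIR females below every control female.

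No gene of synthesis and transport was called in a housing comparison by edgeR, and none had an unadjusted p under 0.05 over both sexes or within a sex. Gad1 had 163, 367 and 544 CPM (lowest, median and highest) in SIR males, against 157, 372 and 495 CPM in control males, and 178, 443 and 601 CPM in SIR females, against 297, 381 and 604 CPM in control females. Its log2 fold changes were 0.15 ± 0.25 in males and 0.07 ± 0.25 in females. Abat had -0.03 ± 0.04 in males and -0.02 ± 0.03 in females. Gad2, Slc32a1, Slc6a11 and Slc6a9 had values over both sexes of -0.02, -0.02, 0.06 and 0.01. Slc6a5 had -0.20 ± 0.21 over both sexes, resting on the low counts given above.

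Gephyrin clusters glycine receptors and GABA-A receptors under the synapse, and Gphn fell in SIR offspring. It had 51.6, 62.1 and 72.1 CPM in SIR males, against 63.6, 66.9 and 72.5 CPM in control males, and 58.3, 63.1 and 65.5 CPM in SIR females, against 60.5, 69.5 and 75.2 CPM in control females. In all, 14 of 15 SIR libraries lay below the control median, with overlap. The log2 fold change over both sexes was -0.12 ± 0.03 (SE, adjusted p = 0.0355), with -0.11 in males and -0.13 in females. The call was lost without any of SIR males 1, 6 and 15, SIR females 2, 3, 5 and 12, control males 21, 22 and 25 or control females 29, 30 and 31, with an adjusted p of up to 0.0678. Like Gabrb2, with which it correlated (r = 0.80, n = 31), Gphn ran against the hypothalamus marker sum (r = -0.71), and it was still called lower with the 3 components in the fit. Without the 8 libraries numbered apart its log2 fold change was -0.07 (adjusted p = 0.344). Nlgn2 did not differ detectably with housing (0.03 ± 0.04 over both sexes).

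Slc12a2, the chloride importer gene, fell in SIR females. It had 90.1, 121 and 143 CPM in SIR females, against 125, 137 and 163 CPM in control females. It had 91.8, 106 and 124 CPM in SIR males, against 101, 110 and 133 CPM in control males. Of the SIR females 7 of 8 lay below the control median and 6 below every control female. The log2 fold change was -0.26 ± 0.08 in females (adjusted p = 0.046) and -0.08 ± 0.08 in males. The call was lost without any of 19 libraries, with an adjusted p of up to 0.111. Without the 8 libraries numbered apart the log2 fold change was -0.09 (adjusted p = 0.736). The call was also lost with 3 components of neighbouring-region markers in the fit (-0.20, adjusted p = 0.402). The same held without SIR female 5 and control females 20 and 31 (-0.23, adjusted p = 0.11). The 19 were SIR males 6 and 13, SIR females 2, 3, 5, 7, 9 and 12, control males 16, 19, 21, 25, 27 and 28 and control females 17, 26, 29, 30 and 31. Slc12a2 followed the sum of 7 oligodendrocyte markers over libraries (r = 0.78, rho = 0.81, n = 31). That sum was 7503 to 10554 CPM in SIR females and 9955 to 12002 CPM in control females, and in females 3 of its 7 genes were called lower. In males it was 8174 to 10506 CPM in SIR offspring and 7263 to 10142 CPM in controls, and Mbp, Cnp and Olig1 were called higher, while the Slc12a2 value was negative and not called. The part of those cells in the Slc12a2 difference was not tested. Slc12a5 had -0.06 ± 0.05 in males and -0.05 ± 0.05 in females.

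Males and females were compared over both housings. The females included the library labelled SIR female 5, whose Y-linked counts lay in the male range. Leaving out that library alone kept each call on the 28 genes given here. Of the 28 genes, Nlgn2 was called higher in males and Gabrb1 and Slc12a2 were called lower, so 3 of 28 were called, beside 10.1% of all genes (4.44% higher and 5.65% lower). For Slc12a2, 14 of 15 males lay below the female median, with overlap. Its log2 fold change, males over females, was -0.24 ± 0.05 (adjusted p = 0.00519), and all single-library omissions kept the call. The call was lost with 3 components of neighbouring-region markers in the fit (-0.22, adjusted p = 0.065). The oligodendrocyte sum had means of 9541 CPM ± 846 in SIR males (SD, n = 7) and 9151 CPM ± 949 in SIR females (n = 8), and of 8186 CPM ± 913 in control males and 11112 CPM ± 774 in control females (n = 8 each). It was thus lower in males among controls and not among SIR offspring, and 2 of its 7 genes were called lower in males over both housings. Gabrb1 had 169, 177 and 194 CPM in SIR males and 194, 211 and 234 CPM in SIR females, and 187, 208 and 251 CPM in control males and 187, 215 and 243 CPM in control females. In all, 12 of 15 males lay below the female median. Its log2 fold change was -0.13 ± 0.04 (adjusted p = 0.032). That call was lost without any of SIR males 1, 6 and 15, SIR females 7, 9 and 11, control males 27 and 28 or control female 30, with an adjusted p of up to 0.0685. It was also lost in 6 of 13 other settings. Among them were the length trend removed (-0.05, adjusted p = 0.42) and leaving out SIR female 5 and control females 20 and 31 (-0.11, adjusted p = 0.0613). Nlgn2 had 297, 320 and 346 CPM in SIR males and 253, 298 and 332 CPM in SIR females, and 304, 314 and 343 CPM in control males and 257, 280 and 326 CPM in control females. Its log2 fold change was 0.12 ± 0.04 (adjusted p = 0.0305), with all 15 males above the female median. That call was lost without SIR male 1, SIR female 11 or control female 29, with an adjusted p of up to 0.0563. It was also lost by limma on log2(TPM + 1) (adjusted p = 0.106) and with the 3 components in the fit (0.08, adjusted p = 0.281).

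A wider list of 48 genes around the inhibitory synapse held accessory, trafficking, metabolic and chloride-regulating genes, of which 45 were tested. Over both sexes 3 were called lower (6.67%, beside 4.55% of all genes). Kctd12 (-0.16, adjusted p = 0.0275) and Kctd16 (-0.28, adjusted p = 0.0374) encode auxiliary subunits of GABA-B receptors, and Wnk3 (-0.21, adjusted p = 0.0374) encodes a kinase that acts on chloride transporters. The Kctd12 call was lost without SIR male 6 (adjusted p = 0.052), and those of Kctd16 and Wnk3 without any of 15 libraries each (adjusted p up to 0.0746 and 0.0739). In males Nlgn3, for neuroligin 3, was called lower (-0.15; 2.22% of the 45, beside 1.33% of all genes). In females 4 were called lower (8.89%, beside 4.62% of all genes), namely Kctd12 (-0.20), the kinase genes Wnk1 (-0.18) and Oxsr1 (-0.25), which act on the same transporters, and the neurexin gene Nrxn3 (-0.23). Leaving out single libraries lost the Nlgn3 call in 13 cases, the female Kctd12 and Nrxn3 calls in 7 each, the Wnk1 call without SIR female 3 or control female 31, and the Oxsr1 call in 0. None of the 45 was called higher in these 3 comparisons by edgeR, and at an unadjusted p under 0.05 there were 2, 3 and 1 higher and 15, 9 and 13 lower over both sexes, in males and in females, beside 22.1%, 17.6% and 20% of all genes in either direction. The male minus female difference was called for Oxsr1 (0.36) and for the carbonic anhydrase gene Car2 (0.39), the Car2 call being lost without any of 13 libraries (4.44% of the 45, beside 2.83% of all genes). All 7 oligodendrocyte markers were called higher for the same difference (median 0.41), and their part in the Oxsr1 and Car2 values was not tested.

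Between the sexes 11 of the 45 were called (24.4%, beside 10.1% of all genes, 4.44% higher and 5.65% lower), 2 higher in males (Lhfpl4, 0.12, and Clptm1, 0.09) and 9 lower. Kctd16 had the largest of these differences, at -0.47 ± 0.08 (adjusted p = 0.000271), and stayed called in each of 44 alternative settings. Also lower in males were Dmd (-0.28), Trak2 (-0.25), Wnk1 (-0.20), Oxsr1 (-0.19), Car2 (-0.16) and Slc38a1 (-0.12). The Car2, Slc38a1 and Clptm1 calls were lost without any of 23, 9 and 2 libraries.

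Over the 31 libraries the genes fell into sets that moved with different marker sums. These correlations describe libraries that share tissue composition and depth. Gabbr2 followed the relay neuron sum (r = 0.96, rho = 0.95), as did Gabrd (r = 0.91), Gabbr1 (0.78) and Gabra4 (0.77). Gad1 followed the reticular and prethalamic sum (r = 0.88), as did Gad2 (0.79). Gad2 and Slc32a1, which act in the same terminals, correlated at 0.91. Gabre and Gabrq, neighbours of Gabra3 on the X chromosome, correlated at 0.97 with each other and at 0.82 and 0.83 with the hypothalamus sum.

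Opposite patterns also occurred. Gabra2 ran with Gabra5 (r = 0.86) and against Gabrd (r = -0.84), and it ran against the relay sum (r = -0.77). Leaving out the 2 libraries farthest from the median of the first gene gave 0.94 for Gabbr2 with the relay sum, 0.86 for Gad1 with the reticular sum, 0.84 for Gabrq with the hypothalamus sum and 0.80 for Glra3 with the midbrain sum. After removal of the 4 group means these were 0.96, 0.92, 0.88 and 0.81.

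**Figure D4:**
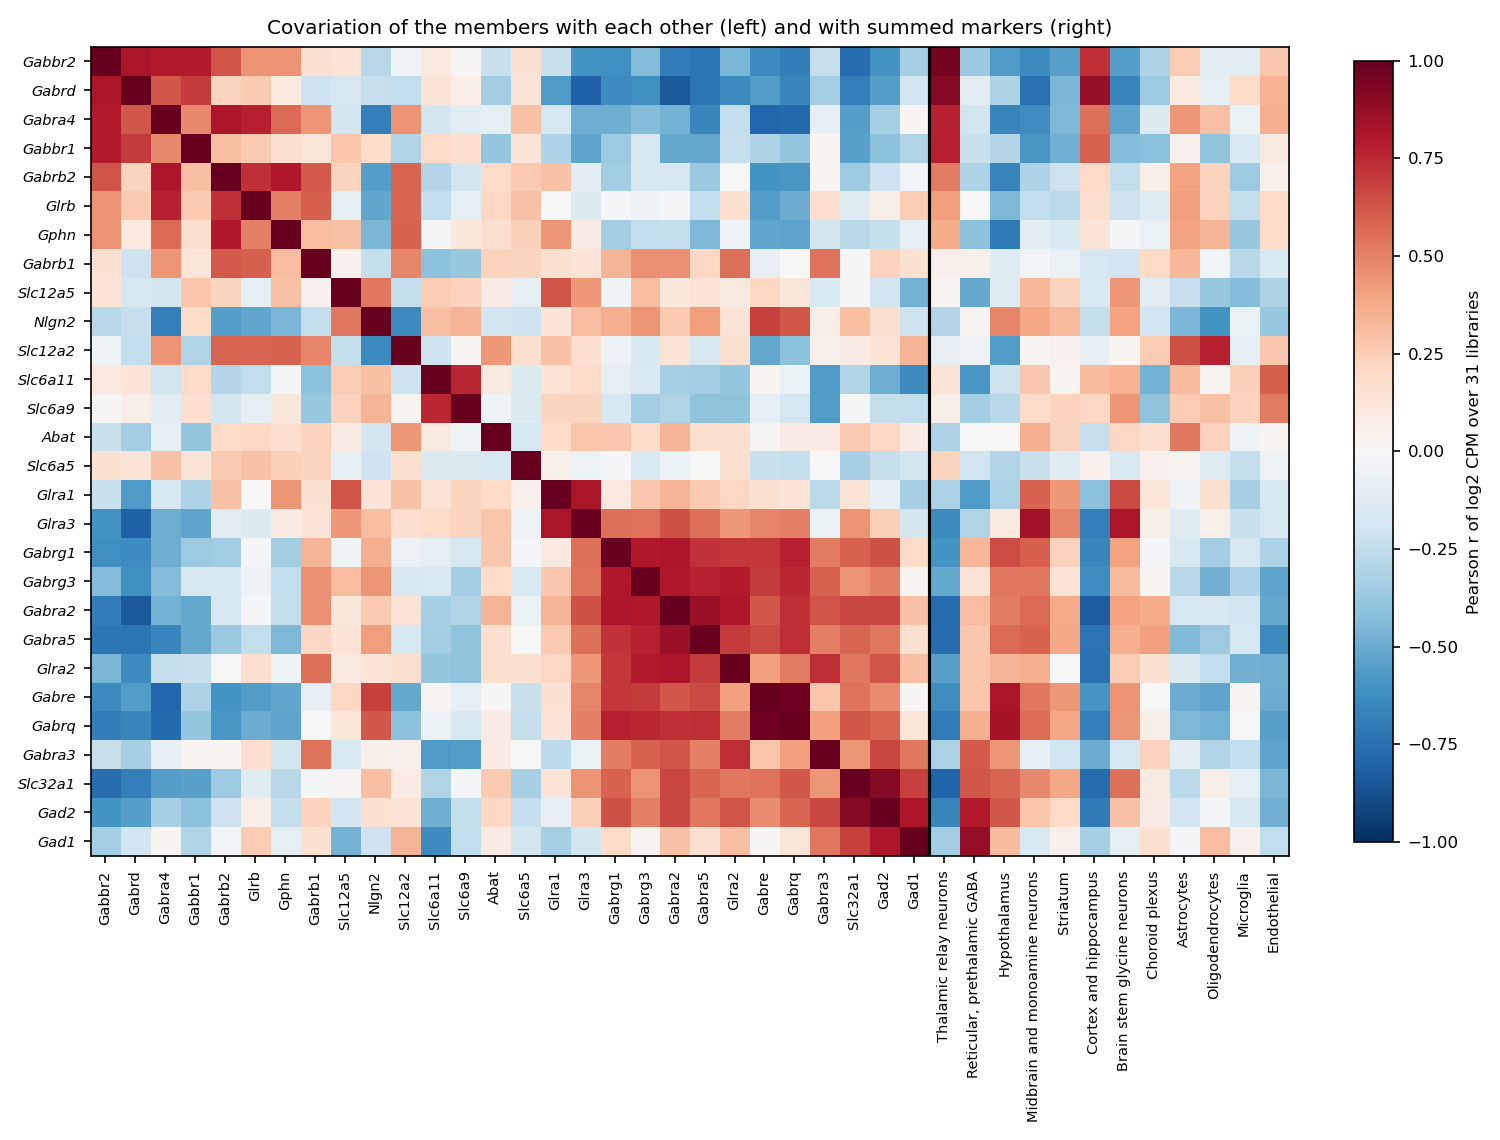
Pearson correlation of log2 CPM over 31 libraries between the 28 genes (left of the black line) and with summed marker genes (right), from -1 in blue to 1 in red. Gabbr2, Gabrd, Gabra4 and Gabbr1 form a red block with the relay neuron sum, and Gabre and Gabrq share the highest value, 0.97.

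**Figure D5:**
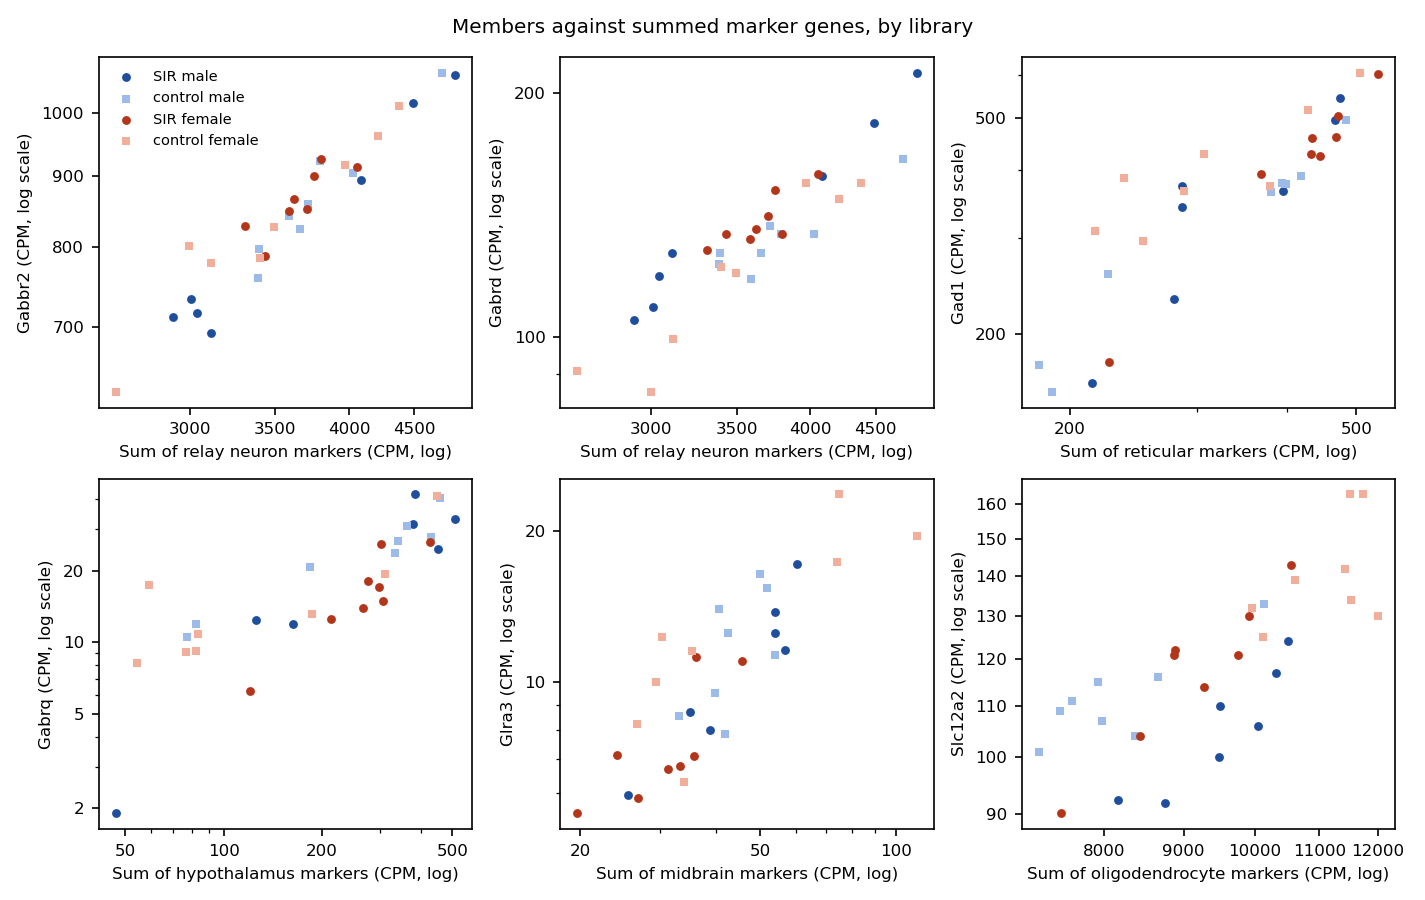
CPM of 6 genes against the summed CPM of a marker list (both log axes), with 1 point per library and colours and shapes for the 4 groups. Gabbr2 follows the relay neuron sum most closely (r = 0.96), and SIR females lie mostly at the low end of the midbrain and Glra3 panel.

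The files held 121 transcripts of the 28 genes, and 81 were tested singly. For 15 genes a leading transcript carried over 80% of the TPM. Gabbr1-203 held 71.8% of Gabbr1, Gad1-201 held 74.8% of Gad1, Glra1-202 held 79.0% of Glra1 and Gphn-202 held 50.5% of Gphn. No transcript was called over both sexes, in males or in females by edgeR or by limma-voom, beside 0.177%, 0.0267% and 0.274% of all transcripts by edgeR, and 14, 10 and 8 had an unadjusted p under 0.05, beside 10.4%, 9.06% and 8.42% of all transcripts. Between the sexes Gabbr1-209 was called higher in males (0.17, adjusted p = 0.0431) and Slc12a2-201 lower (-0.23, adjusted p = 0.0297), beside 1.58% of all transcripts. Reads shared between transcripts of a gene add error that these p-values leave out.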

How the data were processed

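Thalamic polyadenylated RNA of 31 mice had been sequenced with a stranded kit, per the labels' protocols. Per the submitters' processing notes, FastQC, kallisto and the build GRCm39 were used, whose versions the sources do not state. The deposited tables hold 105878 transcripts, each with its effective length, TPM and estimated count, the last not normalized, per the file headers. Transcripts were named with GENCODE M21 (build GRCm38), and 99.12% matched. The unmatched rest held 0.69% to 0.76% of counts and was left out. Whether reads were assigned by strand is not stated, so overlapping genes are uncertain.

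Gene values were rounded sums of the estimated counts. Genes kept by filterByExpr were scaled by TMM and fitted with edgeR 4.0.16 in R 4.3.3 (robust quasi-likelihood, a mean for each of 4 groups, all 31 libraries), with Benjamini-Hochberg adjustment over 14886 genes or 41273 transcripts. Log2 fold changes carry SEs. Correlations used log2(CPM + 0.1) and are descriptions. Within groups, all 105 pairs of libraries differed by at least 5.36 times the chi-square of sampling noise, so each counted as 1 sample. Library totals of 13 to 25.74 M set the counting error. Alternatives included DESeq2 1.42.0, limma 3.58.1 (voom, and trend on log2(TPM + 1)), other scalings and filters, and each library left out. The fits were tested on simulated data. All 28 members were named; per-group values were given for members called in any comparison, and further pathway genes were named where called, except some that are not reported here. The members and lists were chosen with earlier results of these data known.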

Additional observations from a re-analysis of the deposited data

Results flagged for a closer look

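Within each group every gene was screened for a library far from the rest (112 gene and group combinations), and chance flags about 1 in 20 groups. In all, 11 stood apart. In control female 31, the shallowest library, Glra1 stood at 42.7 CPM (the others 9.51 to 24.2), Slc6a11 at 1259 CPM (1028 to 1122), Slc6a9 at 208 CPM (156 to 175) and Slc12a5 at 811 CPM (656 to 724). In control female 20, which held the most choroid plexus marker counts, Gabre stood at 18.5 CPM (3.17 to 8.13) and Gabrq at 41.3 CPM (8.19 to 19.5). Glra1 stood at 16.5 CPM in SIR female 2 (6.60 to 11). Gabra4 stood at 363 CPM in SIR female 11 (245 to 295) and Slc6a11 at 1474 CPM in SIR male 15 (1104 to 1263). Gabrd stood at 166 CPM in control male 16 (118 to 137) and Glrb at 259 CPM in control male 19 (182 to 211).

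For Gabra3 the SIR minus control difference was unlike in the sexes, by a tested male minus female difference of -0.60 on the log2 scale (edgeR adjusted p = 0.0136). That call was lost by limma on log2(TPM + 1) (adjusted p = 0.0505) and by edgeR with 3 region marker components (-0.43, adjusted p = 0.241).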

How the results depend on the processing

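Across 44 settings (31 that leave out 1 library and 13 others), the 11 called member values kept direction and call in 339 of 484 cases, lost the call in 145 and reversed in 0. Members called over both sexes, 3 in the report, were 1 with no filter and 0 with the length trend removed, without the 8 libraries numbered apart and without the 2 shallowest libraries. In males, 1 in the report, they were 0 with upper-quartile scaling, no filter, log2(TPM + 1) or the length trend removed, and 2 with DESeq2, limma-voom, 3 region marker components or without the 2 shallowest libraries. In females, 3 in the report, they were 1 with no filter, with the length trend removed and without the libraries numbered apart, and 0 with the region components. For the male minus female difference, 1 in the report, they were 3 with limma-voom, 0 with log2(TPM + 1) and the region components, and 2 without the libraries numbered apart or the 2 shallowest. Between the sexes, 3 in the report, they were 6 with limma-voom, 1 with log2(TPM + 1), 0 with the region components and 5 without SIR female 5 and control females 20 and 31, a setting chosen after seeing the data. Leaving out single libraries gave 0 to 4 over both sexes, 0 to 2 in males, 1 to 4 in females, 1 to 1 for the male minus female difference and 1 to 5 between the sexes. The causes were not tested. No paired analysis was possible because the labels number the libraries through all groups and no number is shared between groups. Without the libraries numbered apart, edgeR called 0 genes of all tested over both sexes, with 2031 at an unadjusted p under 0.05. Depth limits Slc6a5 most, with 6 to 27 counts in a library.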
